A study of Macaca mulatta with 6 samples.

Results

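The genes described here are 10 inflammatory genes: the cytokines IL6, LIF and TNF, the feedback inhibitors NFKBIA and TNFAIP3, the transcription factor IRF1, the mitochondrial enzyme SOD2, the adhesion molecules ICAM1 and VCAM1, and the enzyme NOS2. They were chosen by symbol, and every probe set whose annotation carried 1 of these symbols alone was taken. This gave 10 of the 14132 named genes and 19 of the 52865 probe sets on the array. TNFAIP3 had 5 probe sets, NOS2 had 4, IL6 and SOD2 had 2 each, and the other 6 genes had 1. The samples were luteal cells of rhesus macaques, dispersed from the corpus luteum 12 days after the surge of luteinizing hormone and plated on fibronectin in medium without serum. From plating, the cells received for 24 h either T0901317 at 1 µM, a synthetic compound that activates the liver X receptors (LXRs), or 0.1% dimethyl sulfoxide (DMSO), the vehicle. Each group had 3 arrays, and the design text calls the replicates paired. The labels do not say whether a pair shares an animal, and the medium of all cultures held insulin, transferrin and selenium.

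NF-kB is a family of transcription factors held in the cytoplasm by inhibitor proteins. Signals such as TNF, interleukin-1 or bacterial products lead to destruction of the inhibitors, and NF-kB then switches on cytokines, adhesion molecules and its own inhibitors. In the primate and human corpus luteum, immune cells and endothelial cells lie among the steroid-making cells, and cytokines such as TNF are best known there from the time of luteal regression. In mouse macrophages, LXRs bound by an agonist are known to hold down a set of NF-kB driven genes that includes Nos2 and Il6. The series title asks which genes LXRs control in luteal cells, and T0901317 minus DMSO is the comparison the design makes.

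The values are log2 levels made by the authors with RMA, which corrects background, sets arrays to a common scale and summarises the probes of each set. The median level of an array lay between 5.54 and 5.71. A level of 4.63, the 95th percentile of the Bacillus control probe sets, served as a reference for dim signal. On this reference 17 of the 19 probe sets were above it on all 6 arrays, and the other 2, both of NOS2, were below it on all 6. On each array 68.8% to 74.1% of all probe sets tested were above it. LXR targets checked the treatment. All 7 measured were higher with T0901317 in 3 of 3 pairs, and 6 of them had an adjusted p under 0.05. Of all named genes 0.177% did, in either direction. Among the 6 was the ubiquitin ligase MYLIP, with a difference of 2.39 ± 0.11 (limma's SE, n = 3 pairs, limma adjusted p = 4.9e-06). ABCA1 did not pass, at 0.47 ± 0.13 (limma adjusted p = 0.88). Of 12 luteal markers 9 were measured, and the mean level of all 9 was above the dim reference. The means of the 13 measured macrophage markers were above it as well, so markers of other cells than the steroid-making ones gave signal. Most of the array was above the reference too, so this alone does not show which cells were present. In such bulk samples fewer cells of a type and less RNA per cell cannot be told apart.

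T0901317 changed none of the 10 genes by an amount that passed the test. Of the 19 probe sets 0 passed an adjusted p of 0.05 in limma, with the replicate number as a block, against 0.0853% of all probe sets tested. At an unadjusted p under 0.05 there were 3 probe sets, both of IL6 and 1 of TNFAIP3, where the share of all probe sets was 3.72%. The T0901317 and DMSO levels overlapped for all 19 probe sets, and for all but 2.45% of the array. By the brightest probe set of each gene, 5 genes lay below 0 and 5 above. Their median difference was -0.040 on the log2 scale, and that of all 14132 named genes was -0.021. For the 9 genes other than IL6, the widest ends of the separate 95% intervals of limma on these probe sets were -0.40 and 0.35. That is a 1.32-fold difference in signal. Each interval covers 1 gene, so this is no joint bound, and a dim second-line NOS2 probe set ran to -0.49.

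**Figure D1:**
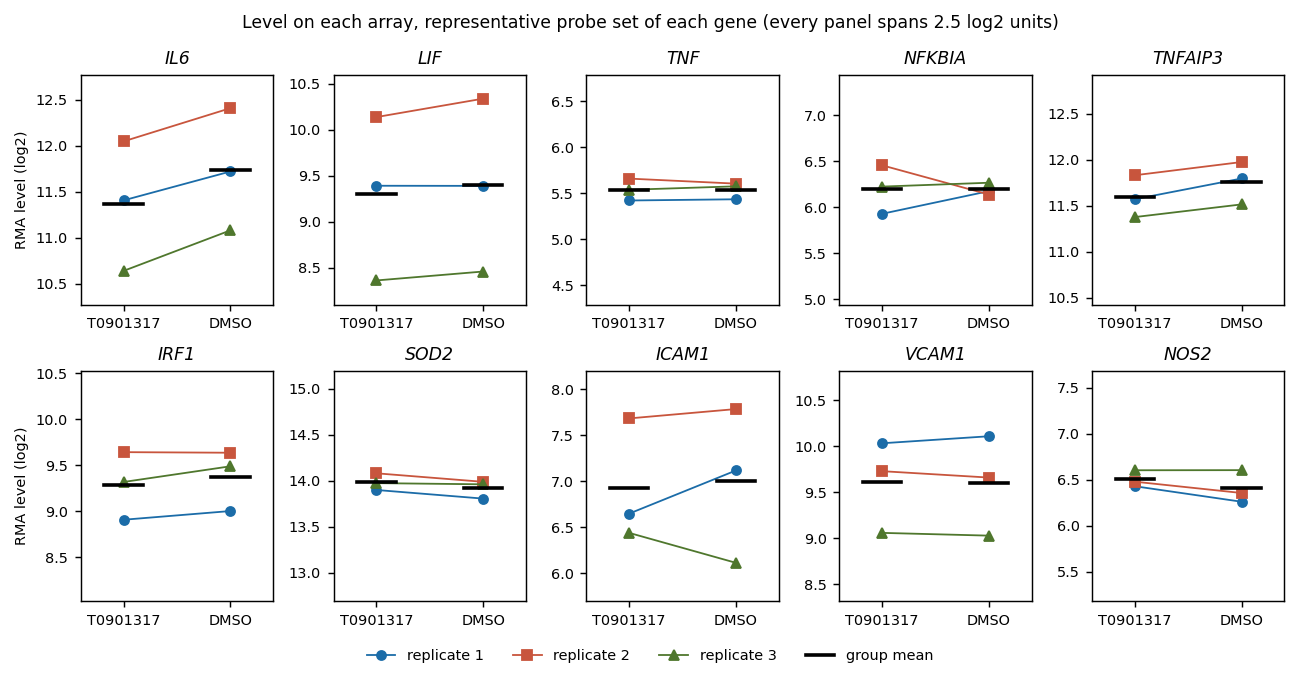
RMA levels (vertical axis, log2) of the 10 genes, by the brightest probe set of each, in T0901317 and DMSO cultures (horizontal axis). Symbols joined by a line are the arrays of 1 replicate number, black bars are group means, and every panel spans the same number of log2 units. IL6 slopes the same way in all 3 pairs, and the replicates of IL6, LIF, ICAM1 and VCAM1 lie 1.03 to 1.83 apart.

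Of the cytokines, IL6 stood closest to a change. IL6, a secreted protein that drives the acute phase response and signals through the receptor subunit gp130, had levels of 11.41, 12.05 and 10.64 in T0901317 cultures of replicates 1, 2 and 3, against 11.72, 12.41 and 11.08 in DMSO cultures. It was lower with T0901317 in all 3 pairs, as 11.1% of all probe sets were. The groups overlapped because the replicates lay far apart. The log2 difference was -0.37 ± 0.064 (limma's SE, n = 3 pairs; 95% interval -0.51 to -0.23; DMSO over T0901317 1.29-fold; limma adjusted p = 0.086).

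A second probe set of IL6 read the same RNA samples, and its probe sequences were not compared with those of the first. Its levels were 10.92, 11.73 and 10.45 in T0901317 cultures and 11.39, 12.38 and 10.76 in DMSO cultures. The difference was -0.47 ± 0.077 (DMSO over T0901317 1.39-fold; limma adjusted p = 0.058), again with the same sign in 3 of 3 pairs. The pair differences were -0.31, -0.36 and -0.44 on the brighter probe set and -0.47, -0.65 and -0.31 on the second, so the pair that differed most was not the same on both. By unadjusted p the 2 probe sets ranked 53rd and 65th of 52766, where 45 passed. The p of the last probe set to pass was 4.03e-05, and IL6 had 5.79e-05 and 1.06e-04.

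Markers of cells that can make IL6 were read beside it, and their part in its difference was not tested. Of 8 pericyte and smooth muscle markers 4 were measured, and RGS5, PDGFRB, ACTA2 and DES were not. These 4 measured markers had the lowest median of the 7 marker lists, -0.24. All 4 lay below 0, with pair medians of -0.31, -0.14 and -0.22. Among them CNN1, a calponin of smooth muscle, had -0.33 ± 0.10 and CSPG4, the pericyte proteoglycan NG2, had -0.36 ± 0.13, both lower in 3 of 3 pairs and both named after their values were seen (limma adjusted p = 1.00). The summed linear level of the 4 ranged from 3663 to 5740 in T0901317 cultures and from 4091 to 6679 in DMSO cultures. Macrophage markers had median differences of -0.022, -0.00056 and 0.12 in pairs 1, 2 and 3, with 7 of 13 below 0. Fibroblast markers had 7 of 9 below 0 and a median of -0.060, and their summed linear level ranged from 8928 to 18763 in T0901317 cultures and from 8516 to 19508 in DMSO cultures. Luteal markers had 6 of 9 below 0 with a median of -0.11. Of 12 markers of T and NK cells 6 were measured, with 6 of 6 below 0 and a median of -0.11. Those of neutrophils and platelets had 6 of 8 below 0 with a median of -0.14. Endothelial markers went the other way from IL6, with 9 of 11 above 0 and a median of 0.20. Of the 11, 8 were higher in 3 of 3 pairs. None of these markers passed, and of all named genes 58.6% lay below 0. All 4 pericyte, 13 macrophage and 9 fibroblast markers had means above the dim reference. So did 5 of 6 T and NK markers and 6 of 8 neutrophil and platelet markers.

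Whether IL6 passed depended on how the arrays were fitted. Without replicate 3 it passed on both probe sets, with differences of -0.34 (limma adjusted p = 4.1e-05) and -0.56 (limma adjusted p = 1.1e-13). That fit has 1 residual degree of freedom and takes its spread wholly from the trend over all probe sets, and 328 probe sets, or 0.622%, passed in it. With RNA quality as a covariate, taken as the mean 3' excess of the actin, GAPDH and EF1a control probe sets over their 5' ones, both passed too, at -0.35 and -0.52 (limma adjusted p = 0.0030 and 7.3e-05), where 0.466% of all probe sets passed. Without the replicate block neither passed (adjusted p = 1.00), and the difference was the same in size. On the brighter and the second probe set, limma adjusted p was 0.49 and 0.41 without replicate 1. It was 0.40 and 0.45 without replicate 2, and 0.16 and 0.34 with quantile normalization. Without the variance trend it was 0.9996 on both. With dim probe sets left out it was 0.058 and 0.044, so only the second probe set passed there. The difference stayed below 0 in every refit. It ran from -0.40 to -0.34 over 9 on the brighter probe set and from -0.56 to -0.39 over 9 on the second. For the mean of both probe sets it was -0.42.

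**Figure D2:**
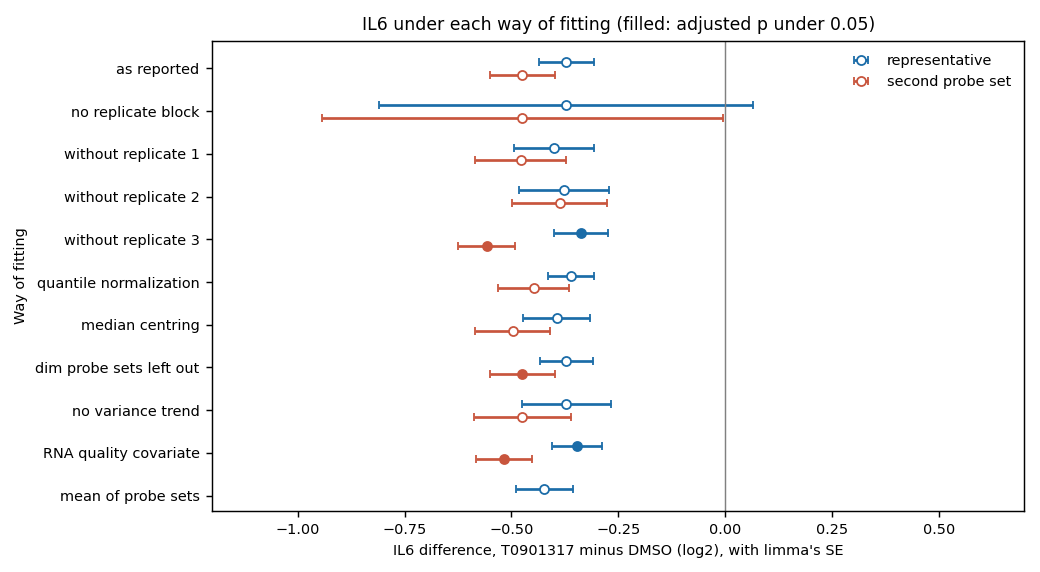
Difference of IL6, T0901317 minus DMSO (horizontal axis, log2, with limma's SE), under each way of fitting (vertical axis). Blue is the brighter probe set and red the second, and on the row for the mean of probe sets blue is the mean of both. Filled symbols had an adjusted p under 0.05. All estimates lie between -0.56 and -0.34, and both probe sets are filled without replicate 3 and with the RNA quality covariate. The second is also filled with dim probe sets left out.

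LIF, a cytokine of the IL-6 family that uses the same gp130 subunit, had levels of 9.39, 10.14 and 8.36 in T0901317 cultures, against 9.39, 10.34 and 8.46 in DMSO cultures. Within each pair the 2 arrays lay close together, and the difference was -0.099 ± 0.085 (limma adjusted p = 1.00). OSM, another member of that family, had a difference of the other sign. It read 6.16, 8.11 and 7.73 with T0901317 and 6.16, 7.64 and 7.09 with DMSO, a difference of 0.37 ± 0.13 that did not pass (limma adjusted p = 1.00).

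TNF, the cytokine that gives its name to the pathway's best known receptor, was measured by 1 probe set at a modest level. It read 5.42, 5.66 and 5.54 in T0901317 cultures, and 5.43, 5.60 and 5.57 in DMSO cultures. All 6 values lay within 0.24 of each other, and the pair differences were -0.013, 0.055 and -0.037. The difference was 0.0014 ± 0.12 (95% interval -0.27 to 0.27).

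The 2 feedback inhibitors are textbook targets of NF-kB. NFKBIA, which encodes the inhibitor protein IkB alpha, read 5.93, 6.45 and 6.22 in T0901317 cultures, against 6.17, 6.14 and 6.26 in DMSO cultures. Its pairs went in different directions, with -0.25, 0.32 and -0.042, and the difference was 0.0098 ± 0.13.

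TNFAIP3 encodes A20, a ubiquitin-editing enzyme that shuts off signalling to NF-kB. On its brightest probe set it had 11.57, 11.83 and 11.38 in T0901317 cultures, against 11.80, 11.98 and 11.52 in DMSO cultures. It was lower in 3 of 3 pairs, as 11.1% of all probe sets were. The difference of -0.17 ± 0.063 had an unadjusted p of 0.020 and did not pass (limma adjusted p = 1.00). The other 4 probe sets had -0.085, 0.084, -0.0705 and 0.012, so they did not share 1 sign, and each of them had pairs of both signs.

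IRF1, a transcription factor induced by interferon gamma and by NF-kB, had levels of 8.909, 9.644 and 9.319 in T0901317 cultures and 9.004, 9.637 and 9.490 in DMSO cultures. The difference was -0.086 ± 0.085. SOD2, the manganese superoxide dismutase of mitochondria, read 13.90, 14.08 and 13.97 with T0901317 and 13.80, 13.99 and 13.96 with DMSO. These values were near the top of the array's range, whose highest value was 14.7, and they lay above 99.9% of probe sets. SOD2 was the 1 gene higher in 3 of 3 pairs (12.0% of all probe sets were), by 0.066 ± 0.047, and its second probe set had -0.061 ± 0.10.

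The adhesion molecules behaved differently from pair to pair. ICAM1, which binds leukocyte integrins, read 6.65, 7.68 and 6.44 in T0901317 cultures, against 7.12, 7.79 and 6.11 in DMSO cultures. It was lower in pairs 1 and 2 and higher in pair 3, with -0.47, -0.10 and 0.33, and its SE of 0.14 was the largest of the 19 probe sets. The difference was -0.082 (95% interval -0.40 to 0.23). It was 0.11 without replicate 1, -0.29 without replicate 3 and -0.24 with the RNA quality covariate, and it passed in none of these.

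VCAM1, the endothelial ligand of the integrin VLA-4, had 10.03, 9.73 and 9.06 with T0901317 and 10.11, 9.66 and 9.03 with DMSO. The arrays of each pair were within 0.076 of each other, and the difference was 0.0077 ± 0.081 (95% interval -0.17 to 0.19). Endothelial markers, as a list, lay above 0 for 9 of 11 measured with a median of 0.20, and 0 passed. Their summed linear level ranged from 1390 to 1991 in T0901317 cultures and from 1200 to 1815 in DMSO cultures. The mean of 10 of the 11 was above the dim reference, and their part in the values of ICAM1 and VCAM1 was not tested.

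NOS2, the inducible nitric oxide synthase, was above the dim reference on 2 of its 4 probe sets. Its brightest probe set, whose name marks probes that may hit more than 1 transcript, had 6.43, 6.48 and 6.60 in T0901317 cultures, against 6.26, 6.36 and 6.60 in DMSO cultures. The difference was 0.097 ± 0.11. Another probe set had 0.089 ± 0.13, and the 2 below the dim reference had 0.013 ± 0.13 and -0.23 ± 0.12. The last of these was lower in 3 of 3 pairs at levels of 3.20 to 3.54 with T0901317 and 3.44 to 3.68 with DMSO, and the mean over the 4 probe sets had a difference of -0.0089.

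**Figure D3:**
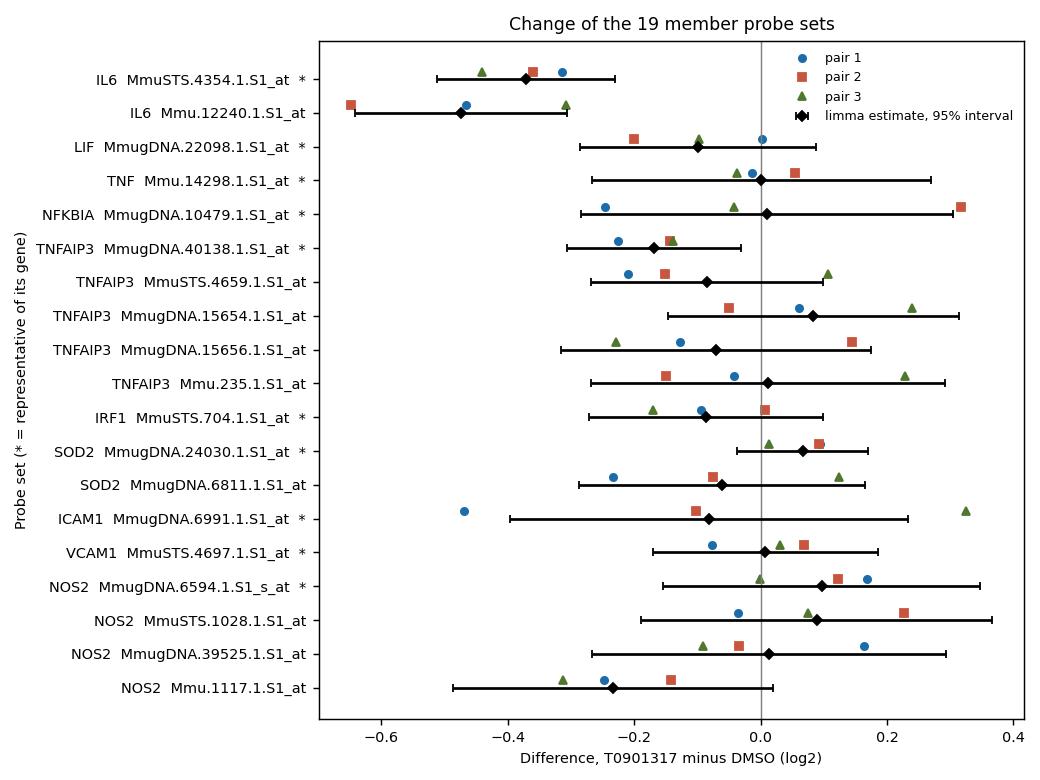
Difference between T0901317 and DMSO (horizontal axis, log2) for the 19 probe sets of the 10 genes (vertical axis; an asterisk marks the brightest of a gene). Coloured symbols are the 3 pairs, and black diamonds with bars are limma's estimates with 95% intervals. Both IL6 probe sets and 1 of TNFAIP3 have intervals that leave out 0, and no adjusted p was under 0.05.

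The replicates were compared as well. An F test of the replicate terms in the same limma fit passed for 10 of the 19 probe sets, and for 6 of the 10 genes by their brightest probe set. It also passed for 40.2% of all probe sets and 46.2% of named genes, so such differences were common on the array. The 6 genes were IL6, LIF, TNFAIP3, IRF1, ICAM1 and VCAM1. LIF had replicate means of 9.39, 10.24 and 8.41, a 3.55-fold range (limma F test, adjusted p = 8.7e-07). ICAM1 had 6.88, 7.74 and 6.28, a 2.75-fold range, and IL6 had 11.56, 12.23 and 10.86, a 2.58-fold range. For IL6 this range of 1.37 was 3.68 times the size of its treatment difference.

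IL6, LIF, TNFAIP3 and ICAM1 had 1 order, highest in replicate 2 and lowest in replicate 3, which 16.2% of all probe sets shared. VCAM1 had another, with 10.07, 9.69 and 9.04 in replicates 1, 2 and 3, and IRF1 was lowest in replicate 1, at 8.96, 9.64 and 9.40. TNF, NFKBIA, SOD2 and NOS2 did not pass the F test, with ranges of 0.18 to 0.26. Of the 15 other genes of the IL-6 family and its signalling that were measured, 5 had the order of IL6 and LIF. STAT3, the transcription factor that gp130 activates, was among the 5, with replicate means of 6.04, 7.05 and 5.07. IL6ST, which encodes gp130, was not, with 6.23, 6.14 and 4.81, and neither was IL6R, the IL-6 receptor, with 7.06, 6.69 and 6.14. These 3 genes were named after their values were seen.

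**Figure D4:**
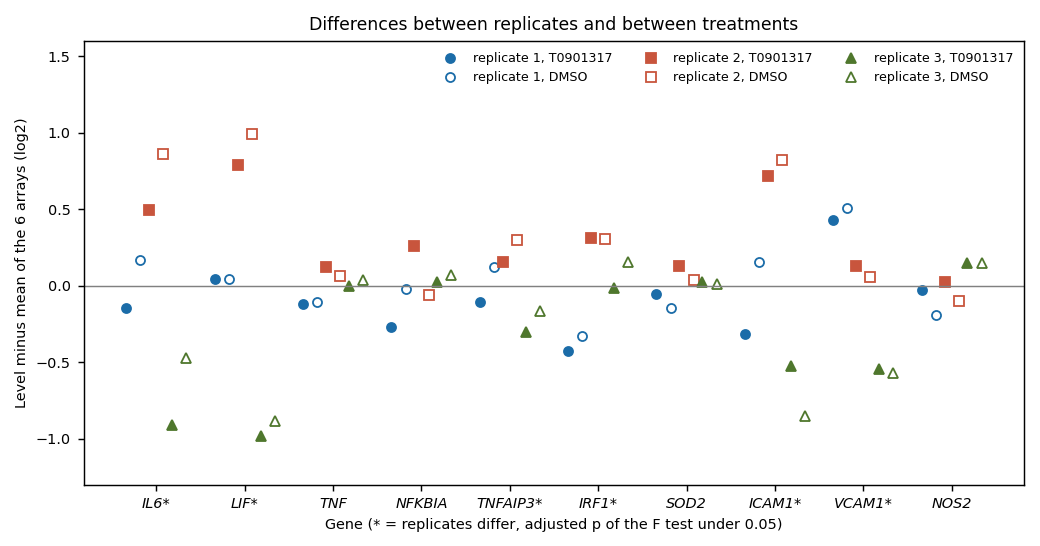
Level of each gene minus its mean over the 6 arrays (vertical axis, log2), for the brightest probe set of each of the 10 genes (horizontal axis). Shapes and colours are the replicates, filled for T0901317 and open for DMSO, and an asterisk marks an adjusted p under 0.05 in the F test between replicates. For IL6 and LIF both arrays of replicate 2 lie on top and both of replicate 3 at the bottom.

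Replicates also differed in cell markers and in RNA quality. The median level of macrophage markers was 7.12, 8.80 and 8.93 in T0901317 cultures of replicates 1, 2 and 3, and 7.13, 8.81 and 8.84 in DMSO cultures. That is lowest in replicate 1, as IRF1 was, while IL6, LIF and ICAM1 were lowest in replicate 3. Fibroblast markers had the order of IL6, LIF and ICAM1, with medians of 8.12, 8.33 and 7.66 in T0901317 cultures and 8.16, 8.49 and 7.56 in DMSO cultures. Of the 9 fibroblast markers 7 were highest in replicate 2 and lowest in replicate 3, as were 4 of 11 endothelial markers, and the other 5 marker lists had at most 1 such gene. With treatment 0 of the 13 macrophage markers passed, and their summed linear level ranged from 4361 to 11296 in T0901317 cultures and from 4729 to 11798 in DMSO cultures. TYROBP, an adaptor protein of myeloid cells, had the largest difference of them, -0.29 ± 0.075 (limma adjusted p = 0.66). The actin control's 3' minus 5' difference was 2.45 in the T0901317 array and 3.50 in the DMSO array of replicate 3, and 1.54 to 2.03 in the other 4. In replicate 3 RNA quality therefore also differed between the treatments. The part of cell makeup or RNA quality in the replicate differences, or in the differences of pair 3, was not tested. The replicates' own conditions are not given in the labels beyond their number.

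Profiles over the 6 arrays were compared as a description. The arrays form 3 pairs, so a high Pearson r mostly reflects 3 replicate levels, and the search covered 3986 named genes with an SD of at least 0.3. IL6 was most like TRAPPC12, MSRB1 and OCEL1, with r of 0.993, 0.992 and 0.990. LIF was most like FAM162A, RFX5 and B3GNT7, each with r of 0.996 or 0.997. ICAM1 was nearest to HMG20B, TMBIM4 and IGFBP4, VCAM1 to TRAF5, TPRKB and PRDX2, IRF1 to LY96, C16H17orf49 and CDKN2A, and TNFAIP3 to RARRES1, ITGA8 and PTN, with r of 0.991 or above. TNF, whose own SD was 0.095, was nearest to TREM2, IRF1 and LCP1, at 0.987, 0.982 and 0.981. The other 3 also had small SDs of 0.092 to 0.17. SOD2 was nearest to TPD52L3, TNFSF9 and CPED1, NOS2 to CCDC150, IRX4 and GGTA1, and NFKBIA to GM2A, NOD2 and CGAS, at 0.879, 0.844 and 0.826.

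Genes around the 10 were read from 11 lists of the same pathways, in which 106 of 146 genes were measured. Of the 106, 0 rose, 0 fell and 106 did not pass in limma, where 0.177% of named genes passed. At an unadjusted p under 0.05 there were 11 of the 106, and 527 of 14132 named genes (3.73%), in either direction. Of the 11, 9 were lower with T0901317, and the matching share of lower named genes was not counted. The lists were chosen with earlier results of these data known. The median of the 106 genes was -0.023, with 61 below 0 and 45 above, where 58.6% of all named genes lay below 0.

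Among NF-kB subunits and inhibitor proteins, 9 were measured with a median of -0.0087. BCL3, a nuclear partner of the p50 and p52 subunits, had 0.16 ± 0.10, and NFKB2, which encodes the p52 precursor, had -0.14 ± 0.12. The 14 kinases and adaptors upstream had a median of 0.014, with TBK1, a kinase of innate immune signalling, at -0.22 ± 0.089 and the adaptor TRAF6 at 0.16 ± 0.14. The 10 ubiquitin regulators had a median of 0.0052, with the linear ubiquitin ligase RNF31 at -0.17 ± 0.10 and BIRC3 at -0.072 ± 0.072.

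Receptors upstream of NF-kB included the largest difference of the 11 lists. TLR4, the receptor of bacterial lipopolysaccharide, had 6.78, 8.58 and 8.39 in T0901317 cultures, against 6.38, 8.18 and 7.71 in DMSO cultures. It was higher in 3 of 3 pairs, by 0.50 ± 0.11 (limma adjusted p = 0.28), and it passed with the RNA quality covariate (0.44; adjusted p = 0.033). IL1RAP, a subunit of the interleukin-1 receptor, had 0.27 ± 0.17, with -0.0015, -0.0042 and 0.80 in pairs 1, 2 and 3. Of the 6 receptors measured 4 lay below 0 and 2 above, with a median of -0.053. TLR2, named after its values were seen, had -0.25 ± 0.086, was lower in 3 of 3 pairs and did not pass.

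The 15 measured ligands, receptors and signalling proteins of the IL-6 family had a median of 0.034. Beside OSM, the ligand CLCF1 had the largest difference, -0.25 ± 0.11, and was lower in 3 of 3 pairs. The interferon gamma arm had 7 measured with a median of 0.0076. GBP2, a guanylate-binding protein, had -0.31 ± 0.11, and TAP1, a peptide transporter of antigen presentation, had -0.22 ± 0.086. None of these passed (limma adjusted p = 1.00).

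Beside SOD2, 3 antioxidant enzymes were measured, with SOD1 at -0.092 ± 0.064 and CAT, or catalase, at 0.086 ± 0.14. The 9 partners of the adhesion molecules had a median of -0.051, with the integrin subunits ITGB1 at 0.24 ± 0.19 and ITGB2 at -0.17 ± 0.092. ITGB1 had 1.05 in pair 3 and -0.28 and -0.039 in pairs 1 and 2. Genes of nitric oxide and arginine metabolism had the lowest median of the 11 lists, -0.10 over 7, with the arginase ARG1 at -0.23 ± 0.14 and ASS1, which makes argininosuccinate, at -0.15 ± 0.078. ARG1 was below the dim reference on 5 of 6 arrays.

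Of the other NF-kB targets 20 were measured, with a median of -0.044, 16 below 0 and 4 above, where 58.6% of all named genes lay below 0. CCL20, a chemokine, had 7.27, 8.56 and 7.98 in T0901317 cultures, against 7.78, 9.12 and 7.94 in DMSO cultures. It was lower in pairs 1 and 2 only, and the difference was -0.34 ± 0.12. CSF2, which encodes the growth factor GM-CSF, had 8.26, 7.56 and 9.39 with T0901317 and 8.36, 8.27 and 9.54 with DMSO, a difference of -0.32 ± 0.12. Pair 2 made up most of it, at -0.71.

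In the fit without replicate 3, 3 of these targets passed in the direction of IL6, where 0.403% of named genes passed and were lower. They were CCL20 (-0.53), the chemokine CXCL8 (-0.27) and the cytokine IL1A (-0.33), and the last 2 were named after their values were seen. In pair 3, which that fit leaves out, these 3 genes had 0.037, 0.49 and 0.61, of the other sign, whereas IL6 had the same sign there. Over all 3 pairs CXCL8 had -0.018 ± 0.12 and IL1A -0.019 ± 0.15.

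**Figure D5:**
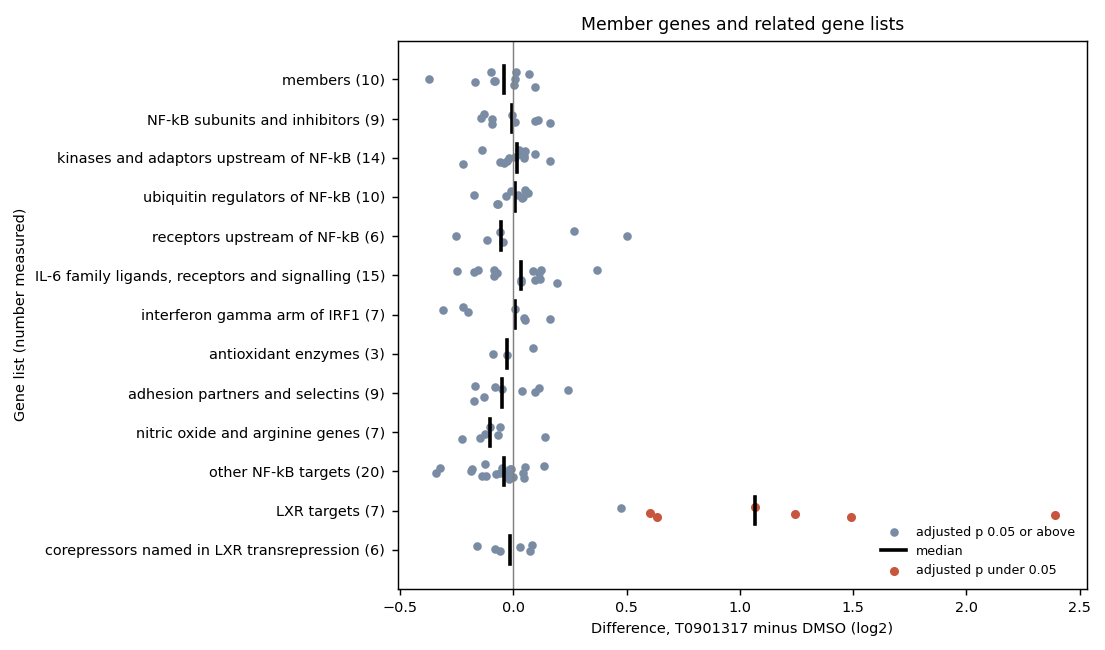
Difference between T0901317 and DMSO (horizontal axis, log2) for the 10 genes (top row), the genes of 11 related lists and the LXR targets (vertical axis, with the count of measured genes). Each point is a gene, red if it passed over the whole array at 0.05, and a black bar marks the median. Red points occur only among the LXR targets, where 6 of 7 passed.

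Of the corepressor and SUMO pathway proteins described in LXR repression of inflammatory genes, 6 were measured and 0 passed. PIAS1, a SUMO ligase, had -0.16 ± 0.098, and the modifier SUMO2 had 0.082 ± 0.073. The median of the 6 was -0.015.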

How the data were processed

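The deposited values are log2 levels of 52865 probe sets on 6 arrays, made by the authors with RMA per the submitters' processing notes, with no version given. Gene names came from the platform annotation, and all 19 member probe sets carried a gene number that the supplied RefSeq table gives the same symbol. After 99 control probe sets were left out, 52766 were fitted with limma 3.58.1 in R 4.3.3 (treatment plus replicate block, eBayes with a variance trend), and called at 0.05 after Benjamini-Hochberg adjustment of two-sided p-values. With 3 pairs an exact sign-flip test reaches p = 0.25 at best, so each gene leans on the spread that limma pools. The pairing comes from the design text. Arrays of the same number deviated together from their group means (r = 0.658, 0.814 and 0.830), and any 2 arrays had at most 0.328% of values in common. The fit was tested on simulated data. A gene is represented by its brightest probe set, the one of highest mean level. Named were all members, the genes past the threshold or else the 2 of largest difference in each list, and the 3 profiles most like each member. The members and lists were chosen with earlier results of these data known. Summed marker levels are sums of the values taken out of log2. The number of arrays limits the precision, and no batch could be tested. Probe and gene sequences were not used here.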

Additional observations from a re-analysis of the deposited data

How the results depend on the processing

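The 10 alternatives were no replicate block, each replicate left out, quantile normalization, median centring, dim probe sets left out, no variance trend, an RNA quality covariate and the mean of a gene's probe sets. IL6, LIF, TNFAIP3, IRF1 and SOD2 kept their direction in all of them, while the sizes of the last 4 moved. With the mean of probe sets SOD2 had 0.0025 and TNFAIP3 -0.046, with quantile normalization LIF had -0.063 and IRF1 -0.038, and with a replicate left out LIF ran from -0.15 to -0.048 and IRF1 from -0.13 to -0.044. IL6 passed without replicate 3 and with the RNA quality covariate (-0.35), and its second probe set passed there (-0.52 with the covariate) and with dim probe sets left out (-0.47). With each replicate left out in turn, IL6 ran from -0.40 to -0.34 and its second probe set from -0.56 to -0.39. NFKBIA changed sign with quantile normalization (-0.014), median centring (-0.013) and the covariate (-0.0065), TNF with quantile normalization (-0.029) and median centring (-0.022), VCAM1 with median centring (-0.015) and the covariate (-0.0082), and NOS2 with the mean of its probe sets (-0.0089). With each replicate left out, NFKBIA ran from -0.14 to 0.14, TNF from -0.025 to 0.021, VCAM1 from -0.023 to 0.050 and ICAM1 from -0.29 to 0.11. The cause of these sign changes was not tested; all lay within the main 95% intervals. The count of member genes past the threshold was 0, and 1 with the covariate, and 0 to 1 with a replicate left out. That of member probe sets was 0, but 2 with the covariate and 1 with dim probe sets left out, and 0 to 2 with a replicate left out. Pathway genes numbered 0, but 2 with the covariate (CCL20 and TLR4) and 0 to 3 with a replicate left out. Of all probe sets 45 passed, against 0 without the replicate block, 11 without the variance trend, 27 with quantile normalization, 246 with the covariate and 35 to 328 with a replicate left out. The fits with the covariate or without a replicate have 1 residual degree of freedom. The replicate block changed no call of a member. Member probe sets that differed between replicates numbered 9 to 11 in 4 alternatives, against 10. Scaling moved the median of all probe sets by less than 0.1. Of the 4 NOS2 probe sets 2 were below the dim reference.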
